A study of Mus musculus with 18 samples.

Results

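Ribosomal protein pseudogenes are genomic copies of ribosomal protein genes. The set described here holds every gene of the deposited table whose symbol begins with Rpl or Rps and ends in -ps with a number, which is 256 of 46583 genes. They were compared by CPM, the usual scaling of a gene's count by the total count of its library, with attention to copies that have counts in one genotype and few or none in the other. The members of the set were chosen by their names, but Rps13-ps1 and Rps15a-ps7 were selected on their CPM in these same libraries, high in one genotype and near 0 in the other in all 3 regions, so their difference between genotypes is a description and carries no test.

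Bulk RNA was sequenced from the base, the middle and the apex of the cochlea of untreated mice 4 weeks of age. The control mice are labelled WT. The other mice are labelled Fst cKO and carry a conditional knock-out of Fst, which encodes follistatin, an extracellular antagonist of activins. The labels name no mouse strain, Cre driver, sex or number of animals. Each of the 6 groups is 1 pool of RNA from which 3 technical libraries were made, so every SD and p-value below measures the spread between libraries of 1 pool and not between animals. A difference between genotypes is then a difference between 2 pools in each region.

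The ribosome is built from RNA and many different proteins, those of the large subunit named Rpl and those of the small subunit named Rps. Messenger RNAs of ribosomal proteins are abundant in every growing cell. Such RNAs were on occasion copied back into DNA by retrotransposon enzymes and inserted elsewhere in the genome, which leaves a processed pseudogene without introns and, as a rule, without the promoter of its parent. Copies inserted long ago have gathered mutations, while recent ones are nearly identical to the parent, and a recent insertion can be present in some mouse strains and absent from others.

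Library totals ran from 24446760 to 33732726 counts, so the 3 counts that a count of 0 allows correspond to 0.0889 to 0.123 CPM per library, a limit that covers counting error only. Fst itself had 64, 63 and 59 counts in the control base and 51, 49 and 45 in the Fst cKO base. In the middle it had 197, 191 and 166 counts in control and 91, 97 and 114 in Fst cKO, and in the apex 671, 722 and 712 against 260, 258 and 278. The log2 change was -0.22 ± 0.15 (SE) in the base (edgeR quasi-likelihood test, adjusted p = 0.308), -1.10 in the middle and -1.29 in the apex. Fst thus fell in the middle and apex, and in the base it does not check the label. Summed cochlear hair cell markers ran from 148.2 to 496.2 CPM over the libraries, and none of the 8 was at 0 in all libraries. Summed markers of airway epithelium ran from 15.4 to 356 CPM and those of cerebellar neurons from 1.38 to 77.2 CPM over the libraries.

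The sequences of both copies and of their parents show how much of each copy can be told from its parent. Rps13 and Rps15a encode proteins of the small subunit. For Rps13 the last 156 coding bases with the stop codon are given (positions 301 to 456), and for Rps15a the first 180 (positions 1 to 180), each followed by the same stretch of its copies, 5′ to 3′. Positions are counted from 1 at the first base of the parent's start codon. Capitals mark bases of a copy that differ from the parent, and all sequences are from GENCODE M21 on GRCm38/mm10. The stretch of Rps13-ps1 lies at chr8:87048020-87048175 on the plus strand and that of Rps13-ps4 at chr8:119602170-119602325 on the minus strand. Those of Rps15a-ps7 at chr2:152185504-152185682, Rps15a-ps8 at chr4:53791277-53791456 and Rps15a-ps6 at chr11:6172857-6173036 are on the minus strand. The genes themselves are at chr7:116331505-116334195 (Rps13) and chr7:118104372-118116188 (Rps15a), both on the minus strand. Rps13-ps4, Rps15a-ps8 and Rps15a-ps6 are printed for what they share with Rps13-ps1 and Rps15a-ps7.
Rps13: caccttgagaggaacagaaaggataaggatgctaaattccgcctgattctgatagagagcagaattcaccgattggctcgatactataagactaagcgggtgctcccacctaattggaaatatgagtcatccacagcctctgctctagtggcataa
Rps13-ps1: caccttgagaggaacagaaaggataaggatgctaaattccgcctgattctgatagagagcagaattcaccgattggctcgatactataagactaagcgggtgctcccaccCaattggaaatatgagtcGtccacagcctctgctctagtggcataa
Rps13-ps4: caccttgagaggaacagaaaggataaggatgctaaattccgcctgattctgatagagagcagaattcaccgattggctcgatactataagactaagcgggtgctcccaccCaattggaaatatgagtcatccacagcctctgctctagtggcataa
Rps15a: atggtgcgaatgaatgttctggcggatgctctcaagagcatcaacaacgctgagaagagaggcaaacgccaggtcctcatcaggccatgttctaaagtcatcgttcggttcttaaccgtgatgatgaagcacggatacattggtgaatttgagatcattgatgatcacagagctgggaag
Rps15a-ps7: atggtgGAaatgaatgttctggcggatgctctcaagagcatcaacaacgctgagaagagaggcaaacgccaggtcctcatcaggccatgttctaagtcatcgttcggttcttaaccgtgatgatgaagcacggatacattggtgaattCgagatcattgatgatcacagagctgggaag
Rps15a-ps8: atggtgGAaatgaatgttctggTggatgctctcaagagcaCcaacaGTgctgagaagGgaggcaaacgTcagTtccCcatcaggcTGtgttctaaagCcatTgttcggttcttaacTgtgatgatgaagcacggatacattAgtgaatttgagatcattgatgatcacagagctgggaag
Rps15a-ps6: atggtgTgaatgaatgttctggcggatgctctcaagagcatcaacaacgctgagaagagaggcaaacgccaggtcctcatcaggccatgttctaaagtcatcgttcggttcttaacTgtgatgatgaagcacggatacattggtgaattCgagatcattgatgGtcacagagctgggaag

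In the tokens that follow, the parent's base comes first. Rps13-ps1 differs from the 456 coding bases of Rps13 by T411C and A429G, neither of which changes the encoded residue, and its reading frame is open over the whole coding length. Rps13-ps4 shares T411C and adds C106A and G121C. Rps15a-ps7 differs by C7G, G8A, T150C and C362G and lacks 1 base of the parent, aligned to position 94, which breaks the frame. Rps15a-ps8 shares C7G and G8A with it and carries 30 differences in all over 387 bases. Rps15a-ps6 shares T150C, and its C7T makes a stop of codon 3.

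Whether a short read can be placed on a copy depends on such differences. As a measure of this, each annotated transcript was divided into all of its overlapping words of 50 bases, and a word was called unique when no transcript of another gene holds it. For Rps13-ps1, 59 of 489 words were unique and 405 were shared with Rps13. For Rps15a-ps7, 114 of 343 were unique and 206 were shared with Rps15a. For Rps15a-ps8, 306 of 338 were unique. The counts of all 3 copies were whole numbers in every library. The same held for Rps13-ps2 and Rpl10a-ps1, which have no unique word, and for the parents Rps13 and Rps15a. Whole counts thus do not show where reads were placed.

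Rps13-ps1 (ENSMUSG00000066362) is annotated as a processed pseudogene of 538 bases at chr8:87047689-87048226 that overlaps no other gene, 3171 bases from Gm18602 and 82070 bases from Gm24781. It had 0 counts in all 9 control libraries. In the Fst cKO it had 87, 83 and 95 counts in the base, 97, 116 and 99 in the middle and 85, 87 and 71 in the apex. These correspond to 3.41 ± 0.233 CPM in the base, 3.09 ± 0.306 in the middle and 3.003 ± 0.327 in the apex (SD, n = 3 libraries of 1 pool). Every Fst cKO library therefore stood above every control library, and the 3 Fst cKO regions lay close together. With 3 counts over the 3 control libraries as the floor, Rps13-ps1 was at least 98.1-fold higher in the Fst cKO base, at least 89.5-fold higher in the middle and at least 86.2-fold higher in the apex.

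Rps15a-ps7 (ENSMUSG00000081087) is a processed pseudogene of 392 bases in the interval between Tcf15, 36194 bases away, and Csnk2a1, 41157 bases away. Its counts in control were 4, 5 and 2 in the base, 5, 0 and 4 in the middle and 3, 1 and 1 in the apex. In the Fst cKO they were 63, 56 and 50 in the base, 63, 55 and 64 in the middle and 51, 78 and 71 in the apex. The control level was low but not 0, and no library of one genotype reached into the range of the other. Mean levels were 0.124, 0.104 and 0.0581 CPM in control base, middle and apex, and 2.17 ± 0.256, 1.80 ± 0.148 and 2.47 ± 0.514 CPM in the Fst cKO (SD, n = 3). The ratio of the group means was 17.5 in the base (95% counting interval 9.30 to 34.8), 17.4 in the middle (8.96 to 38.7) and 42.5 in the apex (17.9 to 132.5).

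**Figure D1:**
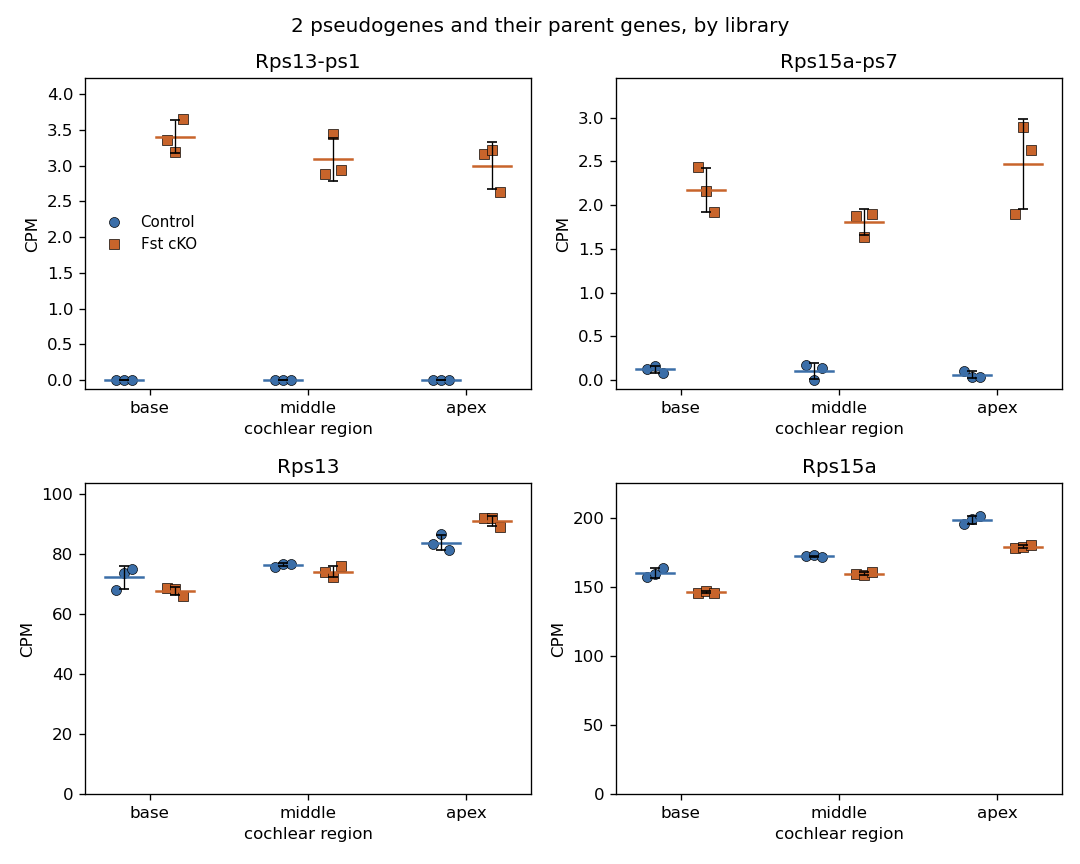
CPM in each of the 18 libraries (y axis) by cochlear region (x axis) for the pseudogenes Rps13-ps1 and Rps15a-ps7 (upper panels) and for their parent genes Rps13 and Rps15a (lower panels); circles are control, squares Fst cKO, horizontal lines the mean and bars the SD of 3 libraries of 1 pool. Rps13-ps1 is at 0 in all 9 control libraries and at 3.003 to 3.41 CPM on average in the Fst cKO regions, while Rps13 and Rps15a differ between genotypes by a small part of their level.

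Rps15a-ps8 (ENSMUSG00000084403) had 0 counts in all 9 control libraries and 3, 4 and 6 counts in the Fst cKO base, 7, 12 and 2 in the middle and 4, 7 and 4 in the apex. Every Fst cKO library thus held it and no control library did, at 0.167, 0.208 and 0.185 CPM on average. Against the floor this is at least 4.81-fold, 6.02-fold and 5.32-fold higher. Rps15a-ps6, in an intron of Nudcd3 (a cochaperone) on the same strand, had 0 counts in the control base and 1 each in the middle and apex, against 5, 6 and 14 in the Fst cKO. Its libraries overlapped between genotypes in all 3 regions. Of the 8 copies of Rps15a, the remaining ones included Rps15a-ps4, at 0.140, 0.195 and 0.128 CPM in control and 0.128, 0.139 and 0.173 CPM in the Fst cKO base, middle and apex. Different copies of 1 parent thus stood differently in the same libraries.

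The same held among the 7 copies of Rps13. Rps13-ps2, whose 453 bases are identical to the coding sequence of Rps13 and which has no unique word, had 0.422, 0.437 and 0.488 CPM in control and 0.321, 0.336 and 0.309 CPM in the Fst cKO. Its counts overlapped between genotypes in every region. Rps13-ps4, which carries T411C as Rps13-ps1 does, had 0.110, 0.0690 and 0.174 CPM in control and 0.0772, 0.148 and 0.173 CPM in the Fst cKO.

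A gene was described as split by genotype when its mean was at least 0.5 CPM in all 3 regions of one genotype and at least 8 times lower in the same regions of the other. Of the 16037 genes that reached that level in a genotype, 4 were split (0.0249%), and of the 10 ribosomal protein pseudogenes that reached it, 2 were, which are the 2 that the choice of the set already names. Of the other copies, Rps15a-ps8 did not reach the level, at no more than 0.208 CPM. Rpl15-ps2 reached it, but its largest ratio was 2.63, far from 8. Both other split genes lie outside the ribosomal protein pseudogenes. Gbp2b (chr3:142594847-142619179), of the family of interferon-induced guanylate-binding proteins, had 0 counts in all 9 control libraries. In the Fst cKO it had 24, 21 and 17 counts in the base, 39, 31 and 35 in the middle and 35, 32 and 27 in the apex, which is at least 23-fold, 30.1-fold and 33.3-fold higher.

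Gm14150, a processed pseudogene at chr2:151458956-151460309, went the other way. It had 78, 79 and 63 counts in the control base, 151, 166 and 163 in the middle and 96, 80 and 102 in the apex, against 6, 4 and 1, then 2, 8 and 3, then 3, 2 and 5 in the Fst cKO. Its mean in control was 18 times that in the Fst cKO in the base, 43.0 times in the middle and 26.1 times in the apex. Gm14150 lies 724982 bases from Rps15a-ps7 on chromosome 2, and the split of the neighbouring copies runs in opposite directions. By annotated kind, 3 of the 4 split genes are processed pseudogenes, out of 135 processed pseudogenes at the level asked for, and 1 is protein coding, out of 14468. Of the 949 pseudogenes named in the same way but of other parents, 26 reached the level and 0 were split. Of the 3 split processed pseudogenes, Rps13-ps1 and Rps15a-ps7 were chosen for their split, which leaves Gm14150. Nothing about kinds of gene is read from these counts. Whether a difference of strain or of flanking DNA between the pools plays a part was not tested, since the labels name no strain.

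**Figure D2:**
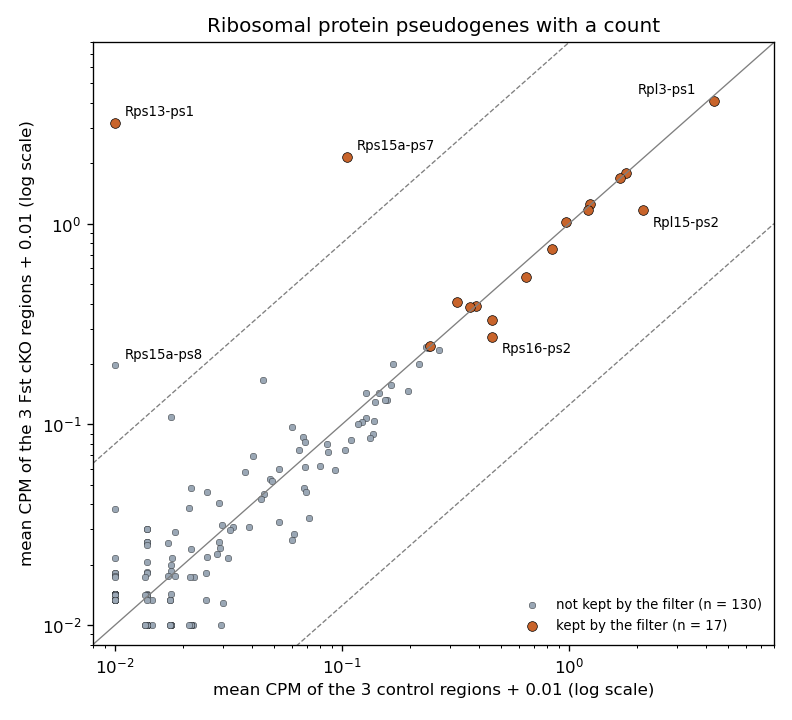
Mean CPM of the 3 control regions (x axis) against the mean of the 3 Fst cKO regions (y axis), both plus 0.01 and on log scales, for the 147 ribosomal protein pseudogenes with a count; the solid line marks equal levels, the dashed lines 8-fold differences, and large points are the 17 copies kept by the filter on low counts. Rps13-ps1, Rps15a-ps7 and Rps15a-ps8 lie above the upper dashed line, and no copy lies below the lower one.

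Of 6 marker lists of other tissues, 2 also separated the genotypes in all 3 regions, both with every Fst cKO library above every control library. Single genes did so, in one direction or the other, in 8.02% of the 17901 fitted, so nothing is read from the number of lists. Summed red blood cell markers were at 423.6 to 433.0 CPM in the control base against 1263.4 to 1274.3 in the Fst cKO, at 785.5 to 791.4 against 796.0 to 802.4 in the middle and at 305.4 to 309.6 against 747.4 to 762.2 in the apex. Summed muscle markers were at 0.409 to 0.824 against 1.76 to 2.15 CPM in the base, at 0.0735 to 0.451 against 0.757 to 0.868 in the middle and at 0.210 to 0.211 against 0.336 to 0.683 in the apex. The lowest muscle sum is under the limit that a count of 0 allows, and the red blood cell sums of the middle lie close together. The airway, oligodendrocyte and astrocyte, cerebellar and bone lists were higher in the Fst cKO in some regions and lower in others. Of the cochlear lists, summed spiral ganglion markers were lower in every Fst cKO library of each region. They were at 2812.4 to 2827.2 CPM in control against 1776.7 to 1791.9 in the base. In the middle they were at 3591.5 to 3612.9 against 3183.4 to 3202.5, and in the apex at 4482.0 to 4506.2 against 3226.3 to 3245.6. The hair cell, supporting cell and stria lists did not separate in one direction in all 3 regions. No marker of the 6 lists was at 0 in every library. The part of these tissues in the split of the pseudogenes was not tested.

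Most of the 256 copies had few or no counts. In all, 147 had at least 1 count in some library, 63 to 79 in any single library, and 109 had none in the 18 libraries. Of the 147, 104 had counts in both genotypes, 22 in control alone and 21 in the Fst cKO alone. Among the 22, 19 had 3 counts or fewer in all, and the highest total was the 5 counts of Rpl29-ps5. Among the 21, 18 had 3 or fewer, and after Rps13-ps1 with 820 and Rps15a-ps8 with 49 the next was Rps6-ps3 with 7. Apart from those named above, a copy seen in one genotype alone was thus one at the edge of detection.

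Summed over all 256 copies the level was 19.6 to 26.2 CPM in the control libraries and 23.6 to 29.1 CPM in the Fst cKO libraries. Without Rps13-ps1 and Rps15a-ps7 the sums were 19.4 to 26.1 and 18.5 to 23.8 CPM. Over the 3 regions together the sums of the genotypes overlapped either way. The order of their medians, 21.3 in control against 24.2 CPM in the Fst cKO, turned to 21.1 against 19.4 CPM once both were set aside. Both copies were chosen for high levels in the Fst cKO, so such a shift follows from the choice and nothing is read from it. Within a region, the full sums were higher in every Fst cKO library of the middle (19.76 to 21.35 against 23.64 to 24.17 CPM). The same held in the apex (21.12 to 24.85 against 26.50 to 29.09 CPM). In the base they overlapped, with control replicate 3 at 26.22 CPM. Without both copies, every Fst cKO library of the middle was lower (19.76 to 21.21 against 18.57 to 19.41 CPM), while base and apex overlapped. The sum of all copies was 0.202% to 0.296% of that of the parent genes.

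The copies with the highest mean counts, which are not scaled for length, were Rpl3-ps1, Rpl14-ps1, Rpl19-ps11, Rpl15-ps2, Rps13-ps1, Rps23-ps1, Rpl10a-ps1 and Rps15a-ps7. Rpl3-ps1, a copy on chromosome X of the gene for a protein near the peptidyl transferase centre, had 350, 386 and 387 counts over the 3 control libraries of base, middle and apex and 308, 412 and 337 in the Fst cKO. Its mean was 4.10, 4.44 and 4.49 CPM in control and 3.96, 4.08 and 4.16 CPM in the Fst cKO, with libraries that overlapped in every region. Rpl14-ps1, in an intron of Trpm4, had 1.89, 1.39 and 2.06 CPM in control and 1.56, 1.61 and 2.15 CPM in the Fst cKO, again with overlap. Rpl19-ps11 stayed between 1.57 and 1.73 CPM in all 6 groups. Rpl10a-ps1, whose 654 bases are identical to Rpl10a and hold no unique word, stayed between 0.9998 and 1.36 CPM. Rps23-ps1, identical to Rps23 over its 425 bases, was at 0.966 to 1.64 CPM, and none of its 18 values was a whole number. Of these 8 copies, 5 therefore showed overlapping libraries between genotypes in all 3 regions. Rps13-ps1 and Rps15a-ps7 are among the others and were chosen for their split, so nothing is read from this count. Over all 17901 genes fitted, 8.02% had libraries without overlap in all 3 regions.

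Rpl15-ps2 and Rps16-ps2 stood lower in the Fst cKO in part of the regions. Rpl15-ps2 lies in an intron of Tcf12, a transcription factor gene, on the opposite strand. Its counts in control were 60, 58 and 45 in the base, 73, 76 and 70 in the middle and 61, 50 and 52 in the apex, against 23, 27 and 28, then 30, 27 and 40, then 49, 36 and 38 in the Fst cKO. The genotypes did not overlap in the base (1.88 against 1.002 CPM) or the middle (2.52 against 0.960 CPM), and did in the apex (1.89 against 1.52 CPM). Tcf12 differed little, by a log2 change of 0.09 in each region. Rps16-ps2, in an intron of Adgrd1, an adhesion receptor gene, was at 0.611 against 0.219 CPM in the base without overlap, at 0.380 against 0.188 CPM in the middle and at 0.349 against 0.383 CPM in the apex, both with overlap. Adgrd1 itself rose in the middle by 1.06 ± 0.089 on the log2 scale (adjusted p = 4.63e-12, edgeR), where its intronic copy had the lower mean. Rps16-ps2 is identical to Rps16 and has no unique word. Rps10-ps4, in an intron of Polr1d, had sums of 3, 4 and 2 counts in control and 9, 18 and 14 in the Fst cKO, and none of its 16 values above 0 was whole within 1e-06.

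The filter on low counts kept 17 of the 256 copies for the fit over 17901 genes. Rps13-ps1, with 0 counts in control, and Rps15a-ps7, with no more than 5 counts in a control library, passed it through the Fst cKO libraries alone. With a call at an adjusted p under 0.05 and a 2-fold change, the genotype contrasts called 3 of these 17 in the base, where 3.03% of all genes were called, 3 in the middle (2.72%) and 2 in the apex (2.04%). They were Rps13-ps1 and Rps15a-ps7 in all 3 regions, Rps16-ps2 in the base and Rpl15-ps2 in the middle, and since the copies were put forward by this contrast nothing is read from the counts. Libraries that did not overlap in all 3 regions, in one direction, were found for 8.02% of the 17901 genes and for Rps13-ps1 and Rps15a-ps7 among the 17 copies.

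The copies were also compared between regions within a genotype; beside the shares over all genes, nothing particular to the copies is read from these counts. Control apex against base called 0 of 17 copies (5.48% of all genes), control middle against base 0 (2.73%), Fst cKO apex against base 0 (6.6%) and Fst cKO middle against base 0 (3.26%). At an adjusted p under 0.05 without a fold threshold the counts were 2, 0, 1 and 0 of 17, where 52.5%, 31.5%, 55.3% and 46.4% of all genes were called. Control apex against middle called 1 (5.3%) and Fst cKO apex against middle called 1 (4.6%), in both cases Rpl9-ps6. This copy, annotated as protein coding on chromosome 19, had 7, 7 and 8 counts in the control base, 3, 4 and 3 in the middle and 12, 7 and 9 in the apex, and in the Fst cKO 4, 4 and 10, then 7, 2 and 5, then 10, 6 and 11. The log2 change from middle to apex was 1.42 ± 0.49 in control (adjusted p = 0.0168, edgeR) and 1.23 ± 0.46 in the Fst cKO (adjusted p = 0.0231). Both rest on 10 to 28 counts a group. The filter kept this copy through its highest libraries. These were at 0.419 CPM in the control apex, 0.372 and 0.407 in the Fst cKO apex and 0.385 in the Fst cKO base. Without the filter neither was called (adjusted p = 0.0552 in control and 0.0768 in the Fst cKO, edgeR). With DESeq2 neither was called (adjusted p = 0.0798 and 0.103). The control call was lost without middle replicate 1, middle replicate 3 or apex replicate 1 (adjusted p = 0.0556, 0.056 and 0.0914, edgeR), and that in the Fst cKO without middle replicate 2, apex replicate 1 or apex replicate 3 (0.136, 0.0748 and 0.103).

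The parent genes are those of the working ribosome, and 53 of the 54 parents named by the copies are in the table. Rps13 was at 68.0, 73.8 and 75.1 CPM in the control base and 68.6, 68.3 and 66.2 in the Fst cKO base, at 75.8, 76.8 and 76.9 against 74.0, 72.5 and 76.1 in the middle, and at 83.5, 86.7 and 81.5 against 92.1, 92.1 and 89.1 in the apex. Its libraries overlapped in the base and the middle and were all higher in the Fst cKO apex. The log2 change was -0.10 ± 0.031 in the base (adjusted p = 0.0105, edgeR), -0.06 ± 0.029 in the middle (0.122) and 0.14 ± 0.028 in the apex (9.77e-05). None of these reaches the 2-fold change asked for.

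Rps15a was at 157.6, 159.3 and 164.2 CPM in the control base and 146.1, 147.4 and 145.7 in the Fst cKO base. In the middle it was at 172.5, 173.1 and 172.3 against 159.6, 158.9 and 161.3, and in the apex at 196.0, 199.6 and 201.8 against 178.3, 179.1 and 180.5. All Fst cKO libraries lay below all control libraries of the same region. The log2 change was -0.14 ± 0.021, -0.12 ± 0.018 and -0.13 ± 0.018 in base, middle and apex (adjusted p = 9.63e-07, 1.42e-06 and 4.31e-07, edgeR), again short of the fold threshold. The mean of Rps15a fell by 14 CPM in the base, by 12.7 in the middle and by 19.8 in the apex, while Rps15a-ps7 gained 2.05, 1.70 and 2.41 CPM. Rps13 changed by -4.62, -2.33 and 7.22 CPM beside a gain of 3.41, 3.09 and 3.003 CPM by Rps13-ps1. The mean of the parent was thus lower in every region for one pair. For the other it was lower in the base and higher in the apex, and in the middle the adjusted p was 0.122. Whether reads of the one were counted for the other was not tested.

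Over all 53 parents the call of a 2-fold change was met by 0 in each of the 3 genotype contrasts. With the adjusted p alone, 3 were higher and 12 lower in the base, 0 and 42 in the middle and 34 and 3 in the apex, where 36.1%, 35.7% and 40.6% of all genes passed in either direction. The changes were small, with medians of -0.03, -0.10 and 0.09 on the log2 scale, where the medians over all genes were -0.02, 0.00 and 0.00. The lowest was Rplp0, a stalk protein of the large subunit, at -0.32 in the base and -0.37 in the middle, and the highest Rpl36, of the large subunit, at 0.45 in the apex. Among the parents of copies named above, Rpl15 was at 0.02, -0.06 and 0.14, Rpl3 at 0.01, 0.03 and 0.07 and Rps16 at -0.05, -0.13 and 0.24. The test of the difference between regions called 0 of 53 parents for apex against base (2.41% of all genes), apex against middle (3.6%) and middle against base (4.7%). Of the 17 copies it called Rps16-ps2 for apex against base and Rpl15-ps2 for apex against middle, from which nothing is read, since the genotype contrast put the copies forward. The parents' differences ran from -0.08 to 0.45, from -0.07 to 0.52 and from -0.26 to 0.07 in the 3 tests, short of the fold threshold. By the adjusted p alone some parents differed between apex and middle, as Rplp1 (0.48, adjusted p = 1.03e-26, edgeR). Others did not, as Rps15a (-0.01, adjusted p = 0.891, edgeR).

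**Figure D3:**
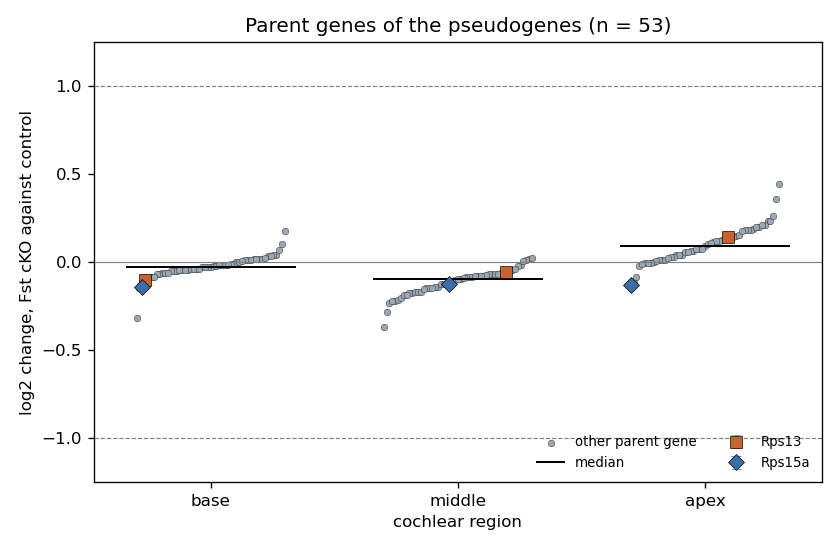
Log2 change between Fst cKO and control (y axis) of the 53 parent genes in each cochlear region (x axis), ordered by value within a region, with the median as a line, Rps13 as squares and Rps15a as diamonds with their SE, and dashed lines at the fold threshold. Every parent lies between -0.37 and 0.45, well inside the threshold, and Rps15a is the lowest parent in the apex.

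Of the full set of 79 ribosomal protein genes of the cytoplasm, 0 were called in any of the 9 comparisons. Between regions they stood higher in the apex, with a median log2 change from base to apex of 0.19 in control (76 of 79 higher by the adjusted p alone, where 52.5% of all genes passed in either direction with a median of 0.00) and 0.31 in the Fst cKO (79 of 79, where 55.3% of all genes passed with a median of 0.02). In the genotype contrasts, 0 of 18 translation factors and other mRNAs of the same regulated class, 0 of 20 genes of ribosome assembly and 0 of 6 tested paralogs of ribosomal proteins were called. At the share of 2.04% to 3.03% over all genes, lists of this size would hold few calls or none.

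Genes beside both copies were looked at within 500 kb on each side. Around Rps13-ps1, 7 genes were tested and 2 rose in the Fst cKO base, Gm2694 by 2.39 ± 0.17 and Cbln1 by 2.47 ± 0.056 on the log2 scale (adjusted p = 3.08e-14 and 1.72e-28, edgeR), with 0 called in the middle or apex. Cbln1, which encodes a secreted protein of cerebellar granule cells, is itself among the cerebellar markers whose sum was at 75.0 to 77.2 CPM in those base libraries and 7.56 to 8.43 CPM in the control base. Cbln1 alone had means of 43.2 and 7.78 CPM there, so the sum does not stand apart from its own change. Around Rps15a-ps7, 21 genes were tested and AA387200 fell in the base by 1.43 ± 0.38 (adjusted p = 0.00273), with 0 called in the middle or apex. The nearest tested genes, Tcf15 and Csnk2a1, had changes of 0.05 and -0.05 in the base, 0.43 and 0.02 in the middle and 0.35 and -0.05 in the apex, none with an adjusted p under 0.05. By the adjusted p alone, 4 of the 21 were lower in the Fst cKO in all 3 regions, as were 3.57% of all genes, and 0 of the 7 around Rps13-ps1. They were Tmem74b (-0.59, -0.38 and -0.26 on the log2 scale in base, middle and apex), Scrt2, a transcriptional repressor gene (-0.76, -0.15 and -0.19), Nrsn2 (-0.24, -0.31 and -0.33) and Sox12, a transcription factor gene (-0.37, -0.23 and -0.22). With the fold threshold, no tested neighbour of either copy was called in all 3 regions.

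Among themselves the 256 copies differ mainly in how close they are to the parent. Positions were found for 255, of which 243 are annotated as processed pseudogenes, 6 as transcribed processed pseudogenes and 6 as protein coding. Outside other genes lie 177, within introns 71, and 7 overlap an exon. Chromosome X holds 35, and Rpl31 has the most copies with 22, of which 11 had a count. The 17 copies kept by the filter had a median identity to the parent of 99.8%, the 130 with a count but not kept 97.7% and those at 0 94.1%. The median share of unique words ran the other way, at 4.31%, 52.1% and 78.5%. The kept copies as a class thus resembled their parents most closely. How reads common to parent and copy were assigned is not given in the sources used here. An alignment over the whole coding length of the parent was found for 9 of 17, 54 of 130 and 41 of 107 copies in these classes, with an unbroken reading frame in 7, 37 and 19. Rps13-ps1 is among the 7. Rps15a-ps7, with 33.2% unique words, and Rps13-ps1, with 12.1%, sit above the median of the kept copies.

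**Figure D4:**
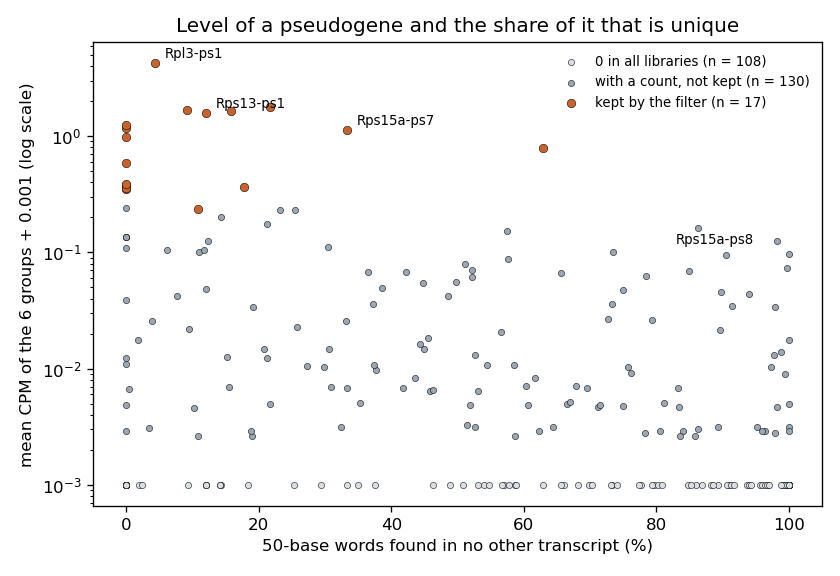
Share of a copy's 50-base words found in no other gene's transcript (x axis, percent) against its mean CPM over the 6 groups plus 0.001 (y axis, log scale) for the 255 copies with a sequence, by whether the filter on low counts kept them. Kept copies gather at low unique shares, with medians of 4.31% against 52.1% and 78.5% in the other classes, and Rps15a-ps8 combines a share of 90.5% with a low level.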

How the data were processed

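Bulk RNA sequencing of 18 libraries (6 groups, 3 technical libraries of 1 pool each) was used. Libraries were made with a TruSeq v2 kit after Ribo-Zero, per the labels' protocols. The submitters' processing notes name STAR 2.5.2b, Cuffdiff 2.2.1 and GRCm38/mm10, and the counting step is not given in the sources used here. The authors deposited expected counts per gene and library, of which 21.9% of values above 0 are not whole within 1e-06, and FPKM values computed per library. Members and gene lists were chosen with earlier results of these data known.

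Counts were rounded and fitted with edgeR 4.0.16 in R 4.3.3 (filterByExpr, TMM, 6 groups in one design, 12 residual degrees of freedom, two-sided quasi-likelihood F tests, Benjamini-Hochberg over 17901 genes). The script was tested on simulated data. CPM was taken over the library total without TMM factors. Lower bounds of a fold use 3 counts over a group, and counting intervals are Clopper-Pearson at 95%. Replicate numbers did not pair libraries. Named copies were the split ones, the 8 highest by mean CPM, those called between regions and those with the largest genotype changes; Rps15a-ps8, Rps15a-ps6, Rps15a-ps4, Rps10-ps4, Rps13-ps2 and Rps13-ps4 were named after their values were seen. Positions, transcripts and words come from GENCODE M21. Alternatives were DESeq2 1.42.0, RLE factors, no filter, limma 3.58.1 on log2(FPKM + 1), rounding down, no fold threshold, a replicate block, other thresholds of the split and leaving out each library.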

Additional observations from a re-analysis of the deposited data

Results flagged for a closer look

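The genotype change differed between regions, by an interaction contrast in the edgeR fit with the same call rule, for 6 genes looked at beside the pseudogenes. Those looked at were Fst, Gbp2b, Gm14150, the parents, the genes near both split copies and the host genes. Over all genes 2.41% were called for apex minus base, 3.6% for apex minus middle and 4.7% for middle minus base, so nothing is read from the 6. For Fst the genotype change was lower in the apex than in the base by a log2 difference of -1.07. For Cbln1, 420 kb from Rps13-ps1, the differences were -3.39 for apex minus base, -1.10 for apex minus middle and -2.29 for middle minus base. Gm2694, in the same neighbourhood, gave -2.64 for apex minus base and -2.63 for middle minus base, and Abcc12 gave -1.56 for middle minus base. Abcc12 had group means of only 0.163 to 0.759 CPM and was not called between genotypes in any single region. AA387200, near Rps15a-ps7, gave 1.30 for middle minus base. Adgrd1, whose intron holds Rps16-ps2, gave -1.36 for apex minus middle and 1.18 for middle minus base. Among the pseudogenes, as a description only, the difference was 1.61 for Rps16-ps2 for apex minus base and 1.11 for Rpl15-ps2 for apex minus middle. Groups of 3 libraries were too small for a check of single outlying libraries.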

How the results depend on the processing

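The 4 genes split by genotype became 6 at a fold of 4 or a level of 0.25 CPM, 3 at 1 CPM and 5 on deposited FPKM, and leaving out a library gave 4 to 5. Rps13-ps1 and Rps15a-ps7 were split under every one of these settings, and on FPKM Rps15a-ps8 joined them. Gm14150 was also split under each setting, while Gbp2b was not split at 1 CPM or on FPKM. Without the filter on low counts 5 pseudogenes were called between genotypes in the apex, 1 each in control apex against base, control middle against base, Fst cKO apex against base and Fst cKO middle against base, and 0 in Fst cKO apex against middle. DESeq2 called 1 in control middle against base and in Fst cKO apex against base, and 0 in apex against middle of either genotype. The replicate block called 2 pseudogenes in Fst cKO apex against middle. Libraries of the same number had correlations of deviations from -0.123 to 0.0734, so numbers do not pair them. Leaving out a library gave 0 to 1 pseudogenes in control middle against base (1 without control base replicate 1), control apex against base (1 without control base replicate 2, Rps16-ps2), control apex against middle and Fst cKO apex against base (1 without base replicate 3 or apex replicate 3). It gave 0 to 2 in Fst cKO apex against middle, 2 without middle replicate 3 or apex replicate 2, when Rps16-ps2 joined Rpl9-ps6. Between genotypes in the middle Rps16-ps2 was called without control middle replicate 2 or Fst cKO middle replicate 3, at -1.30 and -1.49, and with the replicate block, at -1.01. Without the fold threshold, genes called numbered 6459, 6385 and 7266 between genotypes in base, middle and apex, and 9396, 8139, 5647, 9895, 9115 and 8310 between regions, in the order control apex against base, control apex against middle, control middle against base and the same of the Fst cKO. Parents called were then 15, 42 and 37, and pseudogenes 2, 2, 1 and 3 in control apex against base, control apex against middle, Fst cKO apex against base and Fst cKO apex against middle. With limma on log2(FPKM + 1), which holds low genes near 0, the counts were 126, 117 and 52 between genotypes and 259, 208, 90, 309, 206 and 155 between regions, with 0 pseudogenes in apex against middle of either genotype. The cause of these shifts was not tested. Depth limits every copy under about 0.1 CPM, and 1 pool per group leaves the spread between animals unmeasured.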
